A study of Mus musculus with 6 samples.

Results

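The nuclear genes for respiratory complexes II, III and IV and for their assembly were examined in duodenal epithelium of WT and *Esrra*-/- mice. They were taken by symbol: every gene whose symbol starts with Cox and a digit, with Uqc or with Sdha to Sdhd, together with *Cyc1*, *Surf1*, *Sco1*, *Sco2*, *Bcs1l* and *Ttc19*. The rule took 47 of the 22611 genes measured. They comprise 4 subunits of complex II, 9 of complex III and 10 of complex IV, 7 tissue isoforms of complex IV subunits, the supercomplex factor *Cox7a2l* and 15 assembly factors. The remaining gene, *Cox4nb*, is named for its place beside *Cox4i1* and codes for a subunit of a protein complex of the endoplasmic reticulum. RNA was sequenced from 3 WT and 3 *Esrra*-/- mice, with 1 library per mouse. The *Esrra*-/- mice carry a germline null allele, so ESRRA is missing from every tissue and not from the epithelium alone, and the WT mice were their littermates. All were fed a high-fat diet, and mice of both sexes were used. Their age at collection, and whether any of them carried the *Villin-Cre* ERT2 transgene of the breeding colony, are not given in the sources used here. The epithelium was released from the opened duodenum with EDTA, and the labels describe no separation of crypts from villi for these libraries.

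Complex II, succinate dehydrogenase, oxidises succinate in the TCA cycle and passes the electrons to ubiquinone. Complex III, the cytochrome bc1 complex, moves electrons from ubiquinol to cytochrome c and pumps protons, and complex IV, cytochrome c oxidase, hands the electrons to oxygen. Complex II is coded for by nuclear genes alone, whereas the catalytic core of complex IV and cytochrome b of complex III come from mitochondrial DNA and must be joined with nuclear subunits by dedicated assembly factors. ESRRA, estrogen-related receptor α, is a nuclear receptor known for binding at genes of oxidative metabolism.

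Expression is given as FPKM, a fragment count scaled to transcript length and to library depth, so levels of different genes may be compared. Fold changes are *Esrra*-/- over WT on the log2(FPKM + 0.1) scale, from a limma fit to the 10596 genes with a mean FPKM above 1. Calls of lower or higher needed an unadjusted limma p below 0.05 together with a log2 fold change of more than 0.58 in either direction. These p-values set the difference between genotypes against the spread between mice of a genotype. The fit draws that spread toward the one seen in genes of like expression. The adjusted p given beside a value is corrected by Benjamini-Hochberg over every gene tested. *Esrra* itself, at chr19:6985467-6996303 of mm9, stood at 49.4, 73.5 and 104 FPKM in WT against 10.4, 9.42 and 8.72 FPKM in *Esrra*-/-, which is 12.6% of the WT mean (log2 fold change −2.92, SE 0.26, limma adjusted p = 0.0215). WT replicate 3 and *Esrra*-/- replicate 3 stood apart from the other libraries of their genotype: they lacked Y-linked transcripts above 0.222 FPKM in sum, and their values for the subunits described here were the highest of their genotype. Because these are bulk samples, fewer cells of a type and less RNA per cell cannot be told apart.

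The mean of all 23 nuclear subunits of complexes II, III and IV was lower in *Esrra*-/- than in WT. Their log2 fold changes ran from −0.94 to −0.33, and the median was −0.64. Across all genes tested the median was 0.03, and 45.7% had a negative value. Of the 23 subunits, 15 were called lower (65.2%) and 0 higher, beside 3.28% of all genes tested that were called lower and 1.35% that were called higher. The 15 assembly factors had a median of −0.06, and 1 of them, *Cox10*, was called lower. Among the 7 tissue isoforms 3 were expressed enough to be tested, and *Cox6a2* was called higher. No difference between subunits and assembly factors was tested, and the counts are a description of these lists.

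Of the 47 genes, 43 passed the filter on low values. The other 4, *Cox4i2*, *Cox7b2*, *Cox8b* and *Cox8c*, are tissue isoforms with little or no expression in these libraries. In all, 16 of the 43 were called lower. No member passed an adjusted p of 0.05 (limma, Benjamini-Hochberg over all 10596 genes, where 0.0378% did), and 22 were lower and 1 higher at an unadjusted p under 0.05, beside 6.49% and 4.30% of all genes tested. With a covariate for the absence of Y-linked transcripts, *Cox10*, *Cox5a*, *Cox5b*, *Cox6c*, *Cox7a2*, *Cox7c*, *Uqcr10* and *Uqcrfs1*, 8 in all, had an adjusted p under 0.05, beside 0.491% of all genes tested in that fit. After quantile normalization 3 did, beside 0.302%. The groups did not overlap for 23 genes that were lower in *Esrra*-/- and for 1 that was higher, beside 9.14% and 8.45% of all genes tested.

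The count of lower members depended on single libraries. It fell from 16 to 9 without WT replicate 3, to 8 without *Esrra*-/- replicate 1 and to 9 without *Esrra*-/- replicate 2, and rose to 22 without *Esrra*-/- replicate 3. In the same fits, in that order, 3.76%, 2.38%, 5.07% and 3.18% of all genes tested were called lower. The count was 18 without WT replicate 1 and 17 without WT replicate 2, beside 3.58% and 2.65% of all genes. The genes called lower in each of the 6 fits that left out 1 library were *Cox10*, *Cox5a*, *Cox6c*, *Cox7a2*, *Uqcr10* and *Uqcrfs1*. Some calls were lost on p alone: without *Esrra*-/- replicate 1 the log2 fold change was −0.65 for *Cox5b* and for *Cox7c* and −0.62 for *Sdhd*, all still beyond the limit. In every such fit all 23 subunits kept a negative log2 fold change. Without both libraries that lacked Y-linked transcripts, a setting chosen after the values were known, 15 members were lower and 2 higher. In that fit 3.28% of all genes tested were lower and 214 of 10596 were higher, against 143 higher in the main fit.

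**Figure D1:**
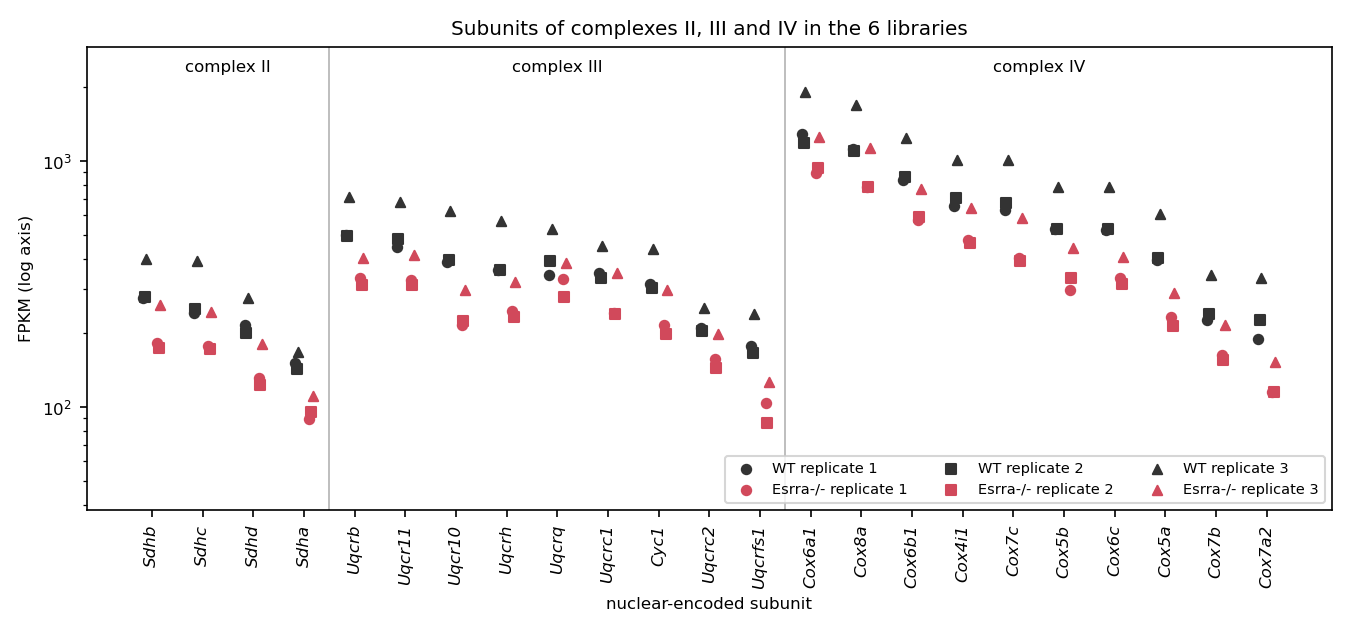
FPKM (log axis) of the 23 nuclear-encoded subunits in each library, ordered within each complex by WT mean, with WT in black, *Esrra*-/- in red and the replicate number given by the symbol. For every subunit WT replicate 3 is the highest WT value and *Esrra*-/- replicate 3 the highest *Esrra*-/- value, and within replicates 1 and 2 all 23 *Esrra*-/- values lie below WT.

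Of the 4 subunits of complex II, 3 were called lower, and the 4 log2 fold changes lay close together. *Sdha*, the flavoprotein that oxidises succinate, had 151, 143 and 167 FPKM in WT and 88.8, 95.0 and 111 FPKM in *Esrra*-/-. The groups did not overlap and were set apart by more than the spread within either, with a log2 fold change of −0.65 (SE 0.15, limma adjusted p = 0.272). *Sdhb*, the iron-sulfur subunit, had 276, 279.7 and 399.8 FPKM in WT and 181, 173 and 259.6 FPKM in *Esrra*-/-, and it was the most abundant of the 4.

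The log2 fold change of *Sdhb* was −0.64 (SE 0.23, limma adjusted p = 0.399), and *Esrra*-/- replicate 3 came close to WT replicates 1 and 2. *Sdhc* and *Sdhd* anchor the complex in the inner membrane and hold its heme. For *Sdhd* the WT values were 214, 200.4 and 276 FPKM and the *Esrra*-/- values 131, 122 and 181 FPKM, without overlap (log2 fold change −0.68, SE 0.21, limma adjusted p = 0.353). *Sdhc* had 241, 249 and 391 FPKM in WT and 177, 172 and 242 FPKM in *Esrra*-/-. Here *Esrra*-/- replicate 3 exceeded WT replicate 1, the log2 fold change was −0.56 (SE 0.24, limma adjusted p = 0.471), and the gene was not called. By mean, *Esrra*-/- levels were 62.8% to 67.0% of WT across the 4 genes.

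All 9 complex III subunits were lower by mean and 5 were called, with a wider range between genes than in complex II. The largest changes were in *Uqcr10*, a small subunit, and *Uqcrfs1*, the Rieske iron-sulfur protein that carries electrons from ubiquinol. *Uqcr10* had 387, 396 and 624 FPKM in WT and 215, 223 and 297 FPKM in *Esrra*-/-, 52.3% of WT (log2 fold change −0.91, SE 0.25, limma adjusted p = 0.309). *Uqcrfs1* had 177, 165 and 238 FPKM in WT and 104, 86.1 and 126 FPKM in *Esrra*-/-, 54.6% of WT (log2 fold change −0.87, SE 0.21, limma adjusted p = 0.289). In both genes the highest *Esrra*-/- value lay well under the lowest WT value.

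*Uqcrb*, which lies at the ubiquinone site, and *Uqcrh*, the hinge protein of cytochrome c1, followed. *Uqcrb* had 499, 495 and 715 FPKM in WT and 334, 313 and 403 FPKM in *Esrra*-/- (log2 fold change −0.69, SE 0.21, limma adjusted p = 0.353). *Uqcrh* had 360.1, 360.0 and 568 FPKM in WT and 244, 231 and 321 FPKM in *Esrra*-/- (log2 fold change −0.67, SE 0.24, limma adjusted p = 0.394). Neither pair of groups overlapped. *Uqcr11* had a log2 fold change of −0.59 and was called lower. *Cyc1*, cytochrome c1 itself, had one of −0.58, or −0.578 to a further digit, just short of the limit for a call, and its groups did not overlap.

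The core proteins *Uqcrc1* and *Uqcrc2* and the small subunit *Uqcrq* had the smallest differences in complex III. *Uqcrc2* had 209.9, 203 and 252 FPKM in WT and 156, 144 and 197 FPKM in *Esrra*-/-, without overlap (log2 fold change −0.43, SE 0.18, limma adjusted p = 0.458). For *Uqcrq* the WT values of 344, 392 and 526 FPKM overlapped the *Esrra*-/- values of 329, 279.8 and 384 FPKM (log2 fold change −0.33, SE 0.22, limma adjusted p = 0.613). The log2 fold change of *Uqcrc1* was −0.47 (limma adjusted p = 0.501), and its groups overlapped as well.

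In complex IV, 7 of the 10 widely expressed subunits were called lower, and *Cox7a2* and *Cox5a* changed most. *Cox5a*, which packs against COX4 on the matrix side, had 394, 402 and 606 FPKM in WT and 231, 213 and 289.7 FPKM in *Esrra*-/-, 52.3% of the WT mean. Its log2 fold change was −0.92 (SE 0.23, limma adjusted p = 0.289), and the groups stood clear of each other. On the other strand the lincRNA *Gm17596* overlaps 38.7% of its exonic bases, and its reads could be counted here. *Cox7a2*, the liver-type form of subunit VIIa, had 189, 226 and 333 FPKM in WT and 115, 115 and 153 FPKM in *Esrra*-/-, with a log2 fold change of −0.94 (SE 0.24, limma adjusted p = 0.295). Its *Esrra*-/- mean was 51.1% of WT.

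*Cox5b*, a zinc-binding subunit on the matrix side, and *Cox6c*, a single-pass membrane subunit, came next. *Cox6c* had 525, 527 and 779 FPKM in WT and 334, 317 and 407 FPKM in *Esrra*-/- (log2 fold change −0.77, SE 0.22, limma adjusted p = 0.328). *Cox5b* had 528, 530.1 and 782 FPKM in WT and 297, 333 and 443 FPKM in *Esrra*-/- (log2 fold change −0.77, SE 0.24, limma adjusted p = 0.355). Both separated the genotypes completely. Of the 31-base stretches in *Cox5b* transcripts of the GENCODE M1 annotation, 46.8% also occur in the near copy *Gm11273*, which had at most 0.515 FPKM in any library, so reads could be divided between this pair.

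*Cox7c*, *Cox7b* and *Cox6b1* were also called, with log2 fold changes of −0.74, −0.59 and −0.58. The call of *Cox6b1*, whose product caps the cytochrome c side of the dimer, rested on a value of −0.581 at a limit of −0.58. *Cox4i1*, which carries the ATP-binding regulatory site, lay just outside at −0.575, although its WT values of 657, 708 and 1008 FPKM did not overlap the *Esrra*-/- values of 476, 463 and 644 FPKM (limma adjusted p = 0.455).

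The most abundant complex IV subunits, *Cox6a1* and *Cox8a*, had the smallest differences and were not called. *Cox6a1*, the liver-type subunit VIa, had 1284, 1181 and 1901 FPKM in WT and 894, 937 and 1249 FPKM in *Esrra*-/- (log2 fold change −0.49, SE 0.26, limma adjusted p = 0.544). *Cox8a*, the smallest widely expressed subunit, had 1114, 1098 and 1686 FPKM in WT and 781, 782 and 1126 FPKM in *Esrra*-/- (log2 fold change −0.53, SE 0.27, limma adjusted p = 0.529). The groups overlapped in both genes: *Esrra*-/- replicate 3 lay between WT replicates 1 and 2 for *Cox6a1* and above both for *Cox8a*. Subunits that occur in equal numbers in the complex thus differed in level, from a WT mean of 249 FPKM for *Cox7a2* to one of 1455 FPKM for *Cox6a1*.

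**Figure D2:**
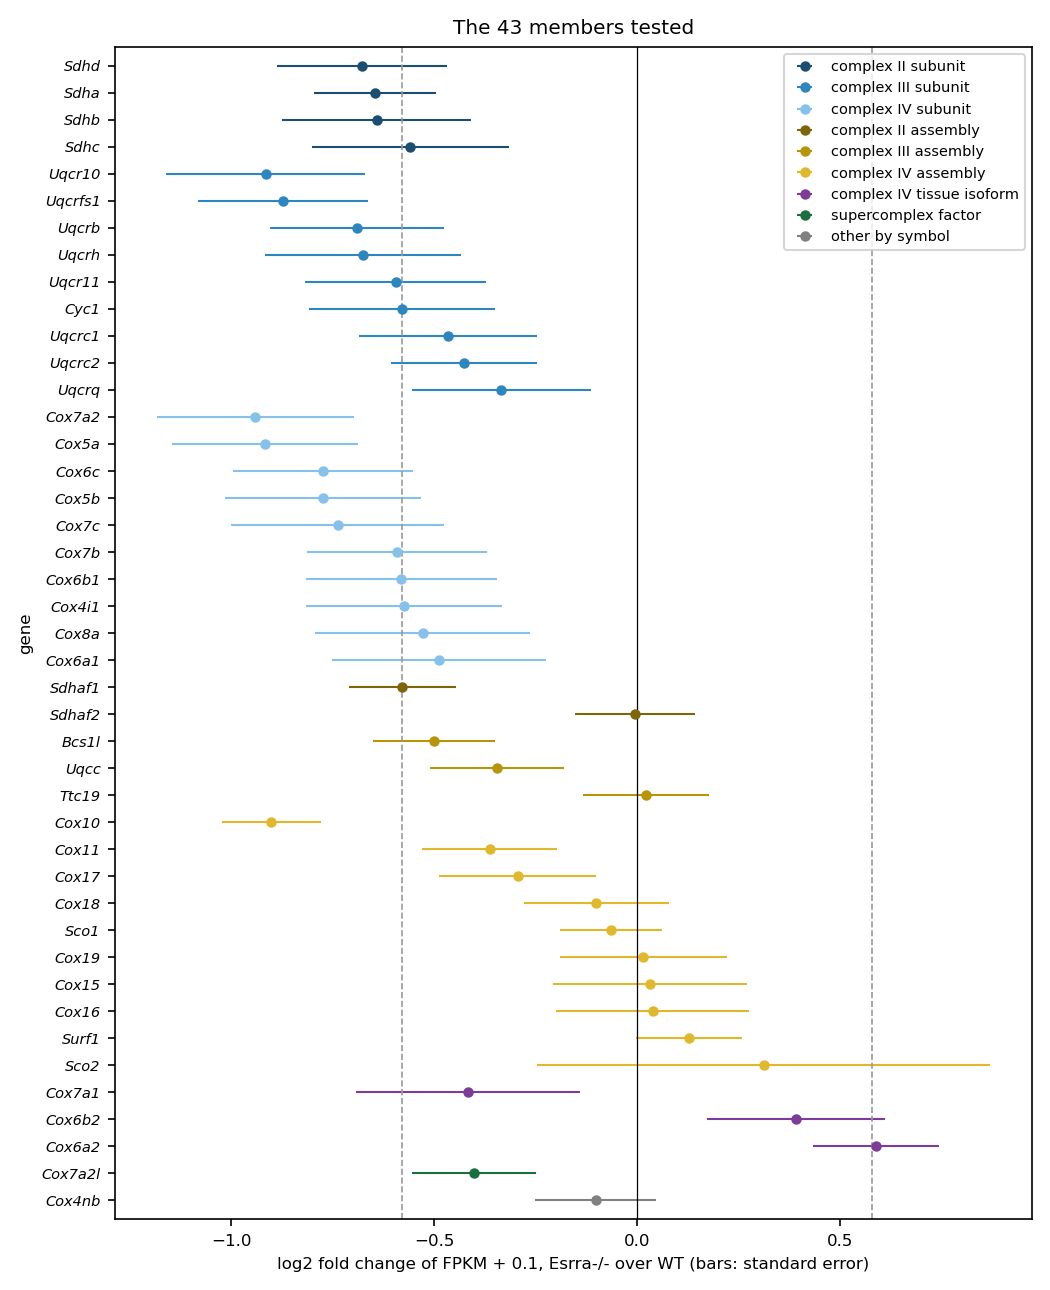
Log2 fold change of FPKM + 0.1, *Esrra*-/- over WT, with its standard error for the 43 members tested, coloured by role and ordered within each role, with dashed lines at the call limits of −0.58 and 0.58. The subunits lie between −0.94 and −0.33, whereas the assembly factors run from −0.90 for *Cox10* to 0.31 for *Sco2*.

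Of the 15 genes that build the complexes, 9 had a negative and 6 a positive log2 fold change, and 1 was called. *Cox10*, the farnesyltransferase that makes heme O on the way to the heme A of complex IV, had 10.3, 9.70 and 9.47 FPKM in WT and 5.40, 5.59 and 4.69 FPKM in *Esrra*-/-. The values within each genotype were close together, and the *Esrra*-/- mean was 53.2% of WT. The p of *Cox10* was the smallest of all members (log2 fold change −0.90, SE 0.12, limma adjusted p = 0.0826). Over the other settings its adjusted p ranged from 0.0402 to 0.458 while its log2 fold change stayed between −0.95 and −0.80. *Cox15*, which turns heme O into heme A in the next step, had 20.3, 17.0 and 27.98 FPKM in WT and 19.8, 18.1 and 28.6 FPKM in *Esrra*-/-, a log2 fold change of 0.032 (SE 0.24, limma adjusted p = 0.972). The difference between *Cox10* and *Cox15* was not tested.

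*Sdhaf1*, which helps to insert iron-sulfur clusters into SDHB, and *Bcs1l*, the AAA protein that places the Rieske protein in complex III, had groups that did not overlap. *Sdhaf1* had 16.6, 14.05 and 13.3 FPKM in WT and 10.5, 9.63 and 9.14 FPKM in *Esrra*-/-. Its log2 fold change of −0.578 (SE 0.13, limma adjusted p = 0.268) was just short of the limit. *Bcs1l* had 6.72, 6.60 and 6.41 FPKM in WT and 5.30, 4.88 and 3.81 FPKM in *Esrra*-/- (log2 fold change −0.50, SE 0.15, limma adjusted p = 0.342). In *Sdhaf1*, 65.9% of the exonic bases overlap *E130208F15Rik* on the other strand, which had at most 0.162 FPKM.

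The other assembly factors were not called. *Surf1*, which acts at the heme step of the COX1 subunit and is mutated in Leigh syndrome, had 20.1, 18.7 and 24.0 FPKM in WT and 22.8, 22.9 and 22.7 FPKM in *Esrra*-/-, a log2 fold change of 0.13 (SE 0.13, limma adjusted p = 0.75). *Sco2*, a copper chaperone for COX2, had 7.21, 26.6 and 18.2 FPKM in WT and 37.1, 15.004 and 12.1 FPKM in *Esrra*-/-, a spread that left its log2 fold change of 0.31 with an SE of 0.56 (limma adjusted p = 0.865). The whole annotated *Sco2* transcript lies within exons of *Ncaph2* on the other strand. Reads of this pair cannot be told apart without strand, so the *Sco2* values are uncertain. *Ncaph2* itself had 19.2 to 22.8 FPKM in the 6 libraries.

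Among the copper-handling factors, the log2 fold change was −0.36 for *Cox11*, −0.29 for *Cox17*, 0.016 for *Cox19* and −0.064 for *Sco1*, and the smallest adjusted p among them was 0.489. *Cox18*, which inserts COX2 into the membrane, had −0.10, and *Cox16* had 0.038. *Sdhaf2*, which adds the flavin to SDHA, had a log2 fold change of −0.0044 and *Ttc19*, which clears fragments of the Rieske protein, one of 0.023. *Uqcc*, needed for cytochrome b, had −0.35 (limma adjusted p = 0.507). *Cox11* shares 48.3% of its exonic bases with *Tom1l1* on the other strand and *Cox16* 57.4% with *Synj2bp* on its own strand, so these values may include reads of their neighbours. *Cox4nb* had a log2 fold change of −0.10.

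Each library was also described by how far the subunits lay from their means over the 6 libraries. On the log2 scale the median of these deviations was 0.14, 0.15 and 0.67 for WT replicates 1, 2 and 3, against −0.44, −0.47 and −0.0047 for *Esrra*-/-. WT and *Esrra*-/- were separate on this measure, with *Esrra*-/- replicate 3 nearest to WT. For the 15 assembly factors the medians were −0.058, −0.072 and 0.22 in WT and −0.056, −0.17 and 0.058 in *Esrra*-/-, with overlap. Compared within libraries of like Y-linked content, all 23 subunits were lower in *Esrra*-/- both in replicates 1 and 2 (median log2 difference −0.60) and in replicate 3 against WT replicate 3 (−0.68). Of the 15 assembly factors, 8 were lower in replicates 1 and 2 (median −0.081), 12 in replicate 3 (−0.33) and 6 in both.

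**Figure D3:**
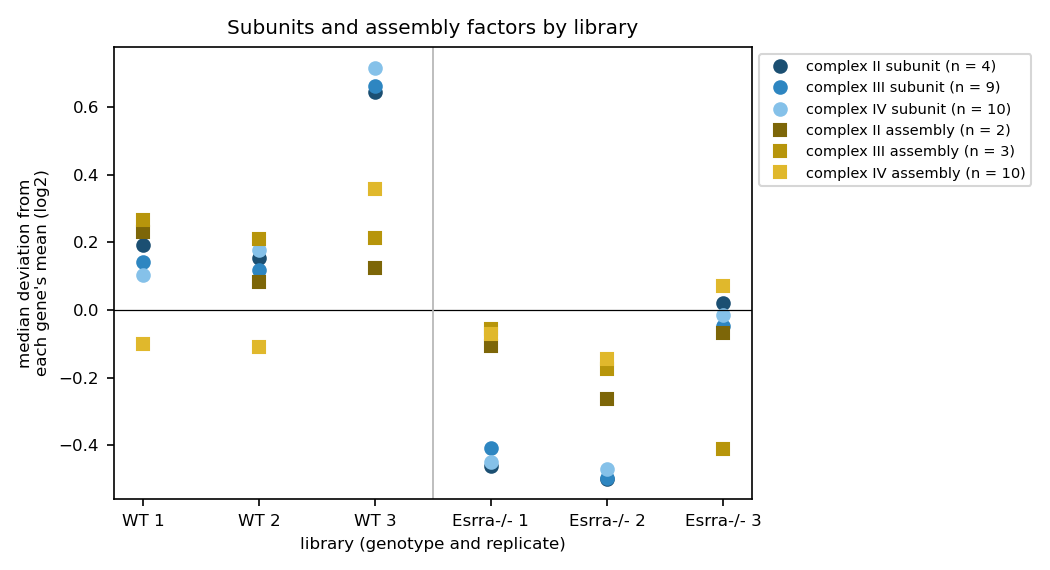
Median deviation from each gene's mean over the 6 libraries (log2 scale) for the subunits (circles) and assembly factors (squares) of each complex, by library. The subunits of the 3 complexes lie close together in every library, above 0 in WT and at or below 0.02 in *Esrra*-/-, and WT 3 and *Esrra*-/- 3 are the highest of their genotype for the subunits.

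WT replicate 3 and *Esrra*-/- replicate 3 were also higher than their group in other abundant, short transcripts. WT replicate 3 exceeded the mean of WT replicates 1 and 2 by a median of 0.56 on the log2 scale for the subunits, by 0.38 for the 230 other genes with a transcript under 1000 bases and a mean FPKM above 100, and by 0.030 for all genes tested. The corresponding values for *Esrra*-/- replicate 3 were 0.44, 0.25 and 0.045. In the same 230 genes, which include other respiratory genes, the median log2 fold change between genotypes was −0.24 and 15.7% were called lower. In the 901 other genes with a mean above 100 FPKM, of any length, replicate 3 was higher by 0.37 in WT and 0.34 in *Esrra*-/-, while the median log2 fold change was 0.066 and 5.77% were called lower. The part of transcript length and abundance in the subunit result was not tested.

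Several complex IV subunits exist as paired genes, a widely expressed form and a form known from heart and skeletal muscle, lung or testis. In this epithelium the muscle form *Cox7a1* had higher FPKM than *Cox7a2*, with 298, 377 and 485 FPKM in WT and 251, 229 and 399 FPKM in *Esrra*-/-. The longest annotated transcript is 364 bases for *Cox7a1* and 754 bases for *Cox7a2*. The order of the 2 genes, and the size of the shares given below, thus depend on the scaling to transcript length. The groups of *Cox7a1* overlapped, and its log2 fold change was −0.42 (SE 0.28, limma adjusted p = 0.613), against −0.94 for *Cox7a2*. Of the 7 markers of striated muscle and brown fat, 6 were below 1 FPKM in all libraries and *Acta1*, skeletal muscle actin, was not. *Ckm*, *Actc1*, *Myh6* and *Myh7* had at most 0.203 FPKM, *Ucp1* of brown fat was listed at 0 in all 6 libraries, *Tnnt2* had at most 0.625 FPKM, and *Acta1* had 4.13 to 34.3 FPKM.

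*Cox7a1* is at chr7:30969190-30971047 (mm9, plus strand) and *Cox7a2* at chr9:79603048-79607660 (minus strand). Their coding sequences are shown because the result rests on telling them apart. Capitals mark bases that are identical when both are aligned, 150 of 243 aligned positions (61.7%), with at most 12 in a row.
Cox7a1: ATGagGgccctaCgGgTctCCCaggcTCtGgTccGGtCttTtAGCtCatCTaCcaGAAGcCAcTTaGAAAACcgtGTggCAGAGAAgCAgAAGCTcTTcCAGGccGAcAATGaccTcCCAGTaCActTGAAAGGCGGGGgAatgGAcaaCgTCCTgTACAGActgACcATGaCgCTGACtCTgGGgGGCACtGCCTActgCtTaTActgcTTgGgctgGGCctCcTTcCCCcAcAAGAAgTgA
Cox7a2: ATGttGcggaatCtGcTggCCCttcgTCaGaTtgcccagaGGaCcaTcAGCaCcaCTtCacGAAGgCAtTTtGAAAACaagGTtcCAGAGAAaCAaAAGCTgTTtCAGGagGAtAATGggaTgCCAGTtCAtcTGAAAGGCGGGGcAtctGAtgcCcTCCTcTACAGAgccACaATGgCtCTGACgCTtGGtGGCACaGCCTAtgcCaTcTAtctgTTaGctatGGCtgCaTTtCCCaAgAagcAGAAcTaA
No stretch of 31 bases, the usual matching length in Kallisto, is shared between either gene and any other protein-coding transcript of GENCODE M1.

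The share of *Cox7a2* in the summed FPKM of *Cox7a1*, *Cox7a2* and *Cox7a2l* was 30.7%, 30.5% and 33.8% in WT and 24.5%, 25.2% and 23.0% in *Esrra*-/-. It dropped by 7.43 percentage points, from 31.7% ± 1.85 to 24.2% ± 1.12 (SD, n = 3 each), with no overlap (exact permutation test, both sides, p = 0.1, below which 3 against 3 mice cannot go). *Cox7a1* took 49.5% ± 1.37 in WT and 54.7% ± 4.93 in *Esrra*-/-, with overlap (exact permutation p = 0.2). *Cox7a2l*, which joins complexes III and IV in supercomplexes, had 129.6, 136 and 167 FPKM in WT and 102, 111 and 113 FPKM in *Esrra*-/- (log2 fold change −0.40, SE 0.15, limma adjusted p = 0.418). Its share of the 3 genes overlapped between genotypes (exact permutation p = 0.5). Within *Cox7a1* and *Cox7a2* alone, a comparison added after the values were seen, the part of *Cox7a1* was 61.0% ± 1.64 in WT and 69.2% ± 2.87 in *Esrra*-/-, without overlap.

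*Cox6a2*, the heart and muscle form of subunit VIa, was the only member called higher. It had 2.75, 2.79 and 3.02 FPKM in WT and 3.81, 5.04 and 4.26 FPKM in *Esrra*-/-. The *Esrra*-/- values all exceeded the WT values (log2 fold change 0.59, SE 0.16, limma adjusted p = 0.307), at a level far below that of its paralog. The call was lost in 5 of 15 other fits, among them those without WT replicate 1 (0.56), without WT replicate 2 (0.57) and without *Esrra*-/- replicate 2 (0.48). *Cox6a2* made up 0.203% ± 0.0395 of the summed FPKM of both forms in WT and 0.433% ± 0.0978 in *Esrra*-/- (SD, n = 3 each; exact permutation p = 0.1, the smallest possible). In *Cox6a2* 5.73% of the 31-base stretches are shared with *Itgad*, which overlaps it on the other strand.

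*Cox6a1* is at chr5:115795651-115798990 and *Cox6a2* at chr7:135348950-135349880 (mm9, both on the minus strand). Their coding sequences share 184 of 294 aligned bases (62.6%), again with at most 12 in a row.

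*Cox6b2*, the testis form of subunit VIb, had 6.70, 4.33 and 8.0003 FPKM in WT and 8.36, 8.20 and 7.77 FPKM in *Esrra*-/-, with overlap (log2 fold change 0.39, SE 0.22, limma adjusted p = 0.561). As a share of *Cox6b1* and *Cox6b2* it was 0.649% ± 0.149 in WT and 1.26% ± 0.232 in *Esrra*-/- (SD, n = 3 each), without overlap (exact permutation p = 0.1, the smallest possible). The testis markers *Tnp1*, *Prm1*, *Prm2*, *Ldhc* and *Pgk2* were listed at 0 in all 6 libraries. The remaining isoforms were at or near 0. *Cox4i2*, the lung form of subunit IV, had 0.0958, 0.0960 and 0 FPKM in WT and 0, 0.0934 and 0.116 FPKM in *Esrra*-/-. *Cox7b2* had 0.175 FPKM in WT replicate 3 and was listed at 0 elsewhere, and *Cox8b* and *Cox8c* were listed at 0 throughout.

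**Figure D4:**
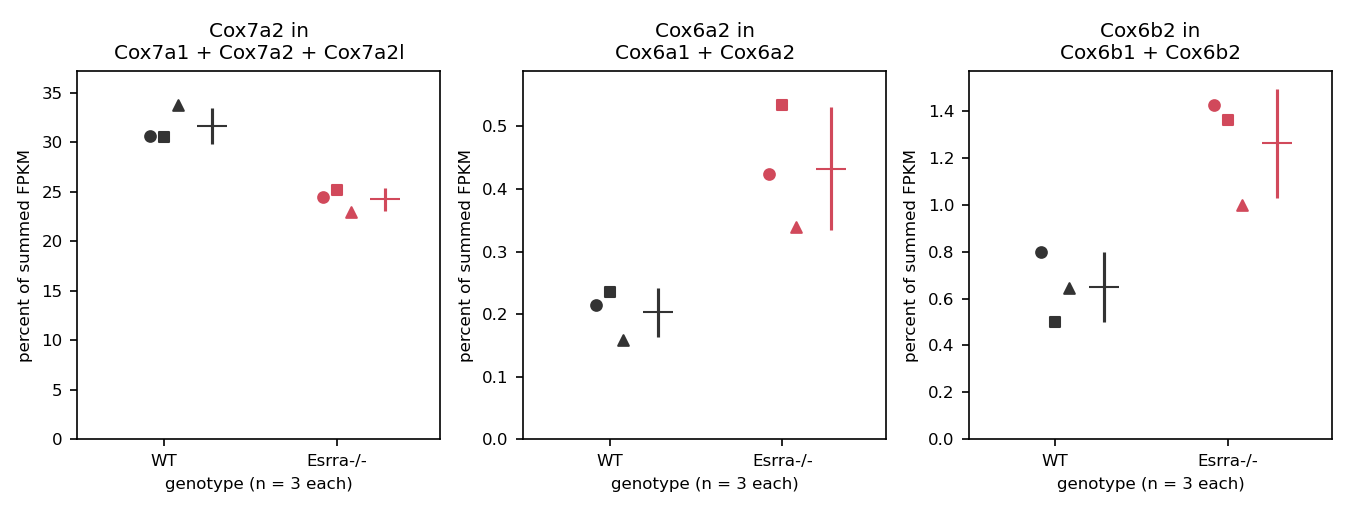
Share of the summed FPKM of paralogous genes taken by *Cox7a2*, *Cox6a2* and *Cox6b2* in each library (symbols give the replicate, with circles for 1, squares for 2 and triangles for 3), with mean and SD at the side. In *Esrra*-/- the share of *Cox7a2* is lower (24.2% against 31.7%), and those of *Cox6a2* and *Cox6b2* are higher while staying under 2% of their pair.

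None of the 4 subunit genes of mitochondrial DNA that were examined was called, and for each the genotypes overlapped. *mt-Co1*, the catalytic subunit of complex IV, had 34799.5, 36007 and 53201 FPKM in WT and 32669.7, 29693 and 43939.6 FPKM in *Esrra*-/- (log2 fold change −0.22, limma adjusted p = 0.881). *mt-Co2*, *mt-Co3* and *mt-Cytb* had log2 fold changes of −0.33, −0.36 and −0.36. Within libraries of like Y-linked content all 4 were lower in *Esrra*-/-, both in replicates 1 and 2, without overlap, and in replicate 3. Within a library, the summed FPKM of the 10 nuclear subunits of complex IV was 7.09%, 6.63% and 6.59% of that of *mt-Co1*, *mt-Co2* and *mt-Co3* in WT and 5.23%, 5.82% and 5.10% in *Esrra*-/-. This ratio, chosen after the values were seen, does not depend on the scaling between libraries and did not overlap between genotypes. For the 9 nuclear subunits of complex III against *mt-Cytb* it was 20.1%, 17.8% and 16.0% in WT and 16.0%, 15.7% and 13.7% in *Esrra*-/-, so that the lowest WT and the highest *Esrra*-/- value were nearly equal.

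Of a list of 31 further partners of these complexes, 17 were in the table and 15 were tested. *Cycs*, the cytochrome c that carries electrons from complex III to IV, had 75.7, 79.3 and 101 FPKM in WT and 37.8, 36.4 and 50.2 FPKM in *Esrra*-/- (log2 fold change −1.04, limma adjusted p = 0.165). *Ndufa4*, now counted as a complex IV subunit, had a log2 fold change of −0.83 (limma adjusted p = 0.326). It and *Cycs* were the only 2 of the 15 called lower, beside 3.28% of all genes tested, and 0 were called higher. *Fam36a*, which codes for the COX2 chaperone COX20, had −0.39 and was not called. The electron transfer flavoprotein genes *Etfa*, *Etfb* and *Etfdh*, which feed ubiquinone from fatty acid oxidation, had log2 fold changes of −0.016, −0.038 and −0.078.

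For comparison, the 36 tested complex I subunit genes had a median log2 fold change of −0.62 with 22 called lower, and the 15 of complex V had −0.60 with 10 called lower. Of all genes tested, 3.28% were called lower. The medians of complexes II, III and IV were −0.64, −0.59 and −0.66. No complex was tested against another.

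In RefSeq's promoter sequences (GRCm38.p6, 250 bases before to 50 after each start), 33 of the 47 genes were matched by symbol, among them 14 of the 16 called lower. CCGGAAG, a core recognised by ETS factors such as GABP, occurred on either strand in 15 of the 33 genes and in 8.86% of all 32851 promoters. Of the 14 called lower, 6 held it, and members that were not called held it about as often. The promoters of *Cox10*, *Cox6b1*, *Sdhd*, *Uqcr11* and *Uqcrh* are shown over the 100 bases before the start because these genes were called lower and hold the motif there, in capitals, as CCGGAAG or its reverse complement. In order, the stretches are chr11:64079473-64079572, chr7:30626115-30626214, chr9:50603850-50603949, chr10:80406822-80406921 and chr4:116075071-116075170, all on the minus strand.
Cox10: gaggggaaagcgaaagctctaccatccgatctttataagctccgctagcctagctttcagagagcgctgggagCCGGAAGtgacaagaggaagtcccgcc
Cox6b1: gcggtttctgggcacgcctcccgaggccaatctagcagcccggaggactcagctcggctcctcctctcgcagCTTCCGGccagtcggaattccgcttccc
Sdhd: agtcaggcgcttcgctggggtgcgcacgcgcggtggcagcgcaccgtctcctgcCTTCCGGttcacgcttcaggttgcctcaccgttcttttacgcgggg
Uqcr11: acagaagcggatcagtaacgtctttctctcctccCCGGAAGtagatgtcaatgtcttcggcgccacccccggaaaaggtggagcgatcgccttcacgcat
Uqcrh: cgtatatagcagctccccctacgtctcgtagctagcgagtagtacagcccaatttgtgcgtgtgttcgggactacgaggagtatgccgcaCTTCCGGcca

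AAGGTCA, the half-site core bound by ESRRA, was present in the window of 1 of the 33 genes, *Sdhd*, and in 4.72% of all promoters. In *Sdhd* it is part of the longer TCAAGGTCA, found in 0.423% of all promoters. It reads on the other strand at chr9:50603800-50603823, starting 37 bases after the start, with the match in capitals.
Sdhd site: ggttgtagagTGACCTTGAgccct
The palindromic consensus of NRF1, searched on both strands, was present in *Cox6a1* and *Uqcrc1*, neither of which was called, and in 0.971% of all promoters. These are matches of letters in a short window. A match does not show binding, and its absence does not show that ESRRA is not bound there or farther from the start. The study mapped ESRRA binding by ChIP-seq in duodenal villi and presents *Cox7a2* as a direct target of ESRRA. Those binding sites were not examined here.

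Markers of epithelial cell types were called lower in the Paneth, crypt and goblet lists, beside 3.28% of all genes tested, and none had an adjusted p under 0.05 (limma). The 10 crypt markers were lower by mean, with a median log2 fold change of −0.63 and 1 called lower, and their summed level was 224 to 354 FPKM in WT and 114 to 266 FPKM in *Esrra*-/-, with overlap. Of the 5 Paneth cell markers, 3 were called lower and the median log2 fold change was −1.37, with summed levels of 7449 to 15932 FPKM in WT and 1554 to 6844 FPKM in *Esrra*-/-. None of the 12 villus enterocyte markers was called. Their median log2 fold change was 0.16, with 11 positive, and their sums were 39998 to 64782 FPKM in WT and 49279 to 68509 FPKM in *Esrra*-/-. In both genotypes replicate 3 had the lowest crypt and Paneth sums and the highest villus sum. Of the goblet cell markers 1 of 6 was called lower, and of the 8 immune markers none was called. Of the pancreatic acinar markers, 4 of 6 were listed at 0, and the 5 mesenchymal markers summed to at most 5.83 FPKM. The part of these marker levels in the subunit result was not tested.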

How the data were processed

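RNA-seq was made from the duodenal epithelium of 6 mice, 3 of each genotype. Per the labels and the study's methods, the authors checked paired-end reads with FastQC 0.11.3, quantified them against mm9 with Kallisto (2.1.0 as given) and computed FPKM with DESeq2 (2.2.1 as given). The TruSeq v2 kit does not keep strand. The annotation is not given in the sources used here. The deposited FPKM values are per library and not pooled. A second deposited file holds the authors' own comparison (mean counts, fold changes, errors, statistics and p-values) and was not used. A count test was not run on FPKM.

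The filter kept genes whose mean exceeded 1 FPKM, and the test was made on log2(FPKM + 0.1) with limma 3.58.1 (lmFit, eBayes with trend, no covariate) in R 4.3.3, and p-values were adjusted by Benjamini-Hochberg across every gene in the fit. The fit was tested on simulated data. Calls used the study's thresholds. Single shares were compared by two-sided exact permutation tests over 20 splits (scipy 1.17.1). Members, gene lists and tests were chosen with earlier results of these data known. Values for every library were given for all complex II subunits, for the 4 most and 2 least changed subunits of complexes III and IV, for called assembly factors and the 2 with the highest fold change, and for isoforms above 0.1 FPKM in any library. *Cox4i1*, *Cox15*, *Sdhaf1*, *Bcs1l*, *Cox7a2l*, *mt-Co1* and *Cycs* were added after their values were seen. Of the 47 symbols, 47 were found in GENCODE M1 (mm9), the source of positions, overlaps and coding sequences.

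Depth is not given by FPKM. Judged from values under 0.2 FPKM, the scaling of a library relative to WT replicate 1 was between 0.829 and 1.03. It was lowest in WT replicate 3 (0.835) and *Esrra*-/- replicate 3 (0.829), and 0.946 to 1.03 in the others. Precision is given by the spread between mice. Alternatives were a pseudocount of 1, other filters, quantile and median-ratio scaling, no trend, other thresholds, a replicate block, a Y-linked covariate and leaving out libraries.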

Additional observations from a re-analysis of the deposited data

How the results depend on the processing

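The median log2 fold change of the members stayed between −0.65 and −0.34 in all settings. The members called lower were 16, and 8 to 22 with each library left out in turn. With an adjusted p under 0.05 there were 0 lower and 0 higher by limma, against 22 and 1 at an unadjusted p under 0.05 with no fold change limit. The adjusted p passed for 3 members under quantile normalization (*Cox10*, *Cox5a*, *Uqcrfs1*; 0.302% of all genes tested) and for 8 with the Y-linked covariate (0.491%). The 1 member called higher, *Cox6a2*, became 0 with a pseudocount of 1 and with median-ratio scaling, 0 to 1 with each library left out, and 2 without both libraries that lack Y-linked transcripts. Of all 10596 genes tested, 143 were called higher in the main fit and 214 in the last of these. The cause was not tested.

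With the replicate number as a block, 16 members were lower and 1 higher, as without it. Of all 10596 genes tested, 4.16% were lower and 192 genes higher with the block, against 3.28% and 143 genes without it. The same-numbered libraries correlated at 0.012, 0.26 and 0.38 in their deviations from the group means, and WT replicate 1 correlated best with *Esrra*-/- replicate 2 (0.18). The labels do not say whether the numbers pair the mice, and these correlations cannot decide it.

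Members near 0 changed sign. Under quantile normalization *Cox15* was at −0.017 and *Cox16* at −0.011, and without both libraries that lack Y-linked transcripts *Cox18* was at 0.015 and *Cox4nb* at 0.0078. Over the fits that lacked 1 library each, log2 fold changes ran from −0.17 to 0.23 for *Cox15*, −0.15 to 0.30 for *Cox16*, −0.20 to 0.082 for *Cox18*, −0.092 to 0.19 for *Cox19*, −0.22 to 0.71 for *Sco2*, −0.13 to 0.11 for *Sdhaf2* and −0.071 to 0.14 for *Ttc19*. None of these was called in any fit. Calls were lost both by members that crossed the fold change limit and by members beyond it whose p rose above 0.05.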

Other observations

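*Sco2* and *Acta1*, skeletal muscle actin, varied widely between mice of the same genotype. *Acta1* had 4.13, 18.9 and 13.4 FPKM in WT and 34.3, 14.4 and 6.92 FPKM in *Esrra*-/-. *Sco2* was likewise lowest in WT replicate 1 (7.21 FPKM) and highest in *Esrra*-/- replicate 1 (37.1 FPKM). This likeness was noticed after the values were seen and was not tested.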
